A study of Mus musculus with 24 samples.

Results

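Glutathione S-transferases were followed across lung RNA from mice given diesel exhaust (DE) and ovalbumin (OVA). The 10 genes were Gsta3 and Gsta4 of the alpha class, Gstm1, Gstm2 and Gstm5 of the mu class, Gstp1 of the pi class, Gstt1 of the theta class, Gsto1 of the omega class, the mitochondrial and peroxisomal Gstk1 of the kappa class, and the membrane-bound Mgst1. Their members on the Affymetrix array were the probe sets annotated to 1 of these symbols alone, 16 of 22626 probe sets, for 10 of the 12393 genes on the array. Probe sets in the lower 40% by mean log2 signal, under a signal of 138, were not tested, which left 15 of the 16. The one set aside was a further probe set of Mgst1, with signals between 12 and 77. Each gene is represented by its tested probe set with the highest mean signal, called its first, unless another is named.

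Exposure was to filtered air, to DE at 500 ug/m3 (DE 500) or to DE at 2000 ug/m3 (DE 2000), on 5 days with 4 hours of exposure each. The mice also received either 100 ug of OVA, the egg-white protein used as a model allergen, or saline, on 3 days. This gave 6 groups of 4 arrays: air, DE 500 and DE 2000 with OVA, and air, DE 500 and DE 2000 with saline. RNA came from frozen lung, so fewer cells of a type and less RNA per cell cannot be told apart. The sources used here give no strain, age or sex. Nor do the labels tie each array to its own animal, and the p-values measure the spread between arrays labelled as replicates. The number of arrays limits the precision of every comparison.

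The arrays differed in how evenly signal ran along the length of control transcripts. The part of labelling and of RNA quality in this was not tested. A standard array measure of such evenness is the log2 ratio of 3' to 5' control probe sets, averaged here over Gapdh and actin and called the 3'/5' ratio. It ran from -0.13 to 2.02 on the 12 OVA arrays (median 0.05) and from 0.10 to 4.38 on the 12 saline arrays (median 1.58). DE 2000 OVA replicate 4 stood alone in its arm at 2.02, and DE 500 saline was split, with 4.38 and 3.77 in replicates 1 and 4 and 0.33 and 0.10 in replicates 2 and 3. The log2 signal of the control for B1, a repeat carried in many unspliced transcripts, ran from 10.85 to 12.43 in OVA and from 12.08 to 13.82 in saline. For the members and gene lists, OVA values or counts fitted with these measures as covariates are given beside the results. Over all tested probe sets, OVA calls in air numbered 240 with the 3'/5' covariate and 28 with the B1 covariate in place of 2004, and at DE 500 they numbered 158 and 48 in place of 1693. The lung label fitted the markers. The summed signals of 9 alveolar type 2 markers lay at or above 113407 on every array, while of 5 liver markers on the array 4, Apoa1, Ttr, Apoa2 and Fga, lay below the limit for testing, and Alb, albumin, was the single tested one.

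Glutathione S-transferases join the thiol of glutathione to electrophiles, among them the epoxides and quinones formed from combustion hydrocarbons and the aldehydes formed when lipids oxidize. The conjugates are exported and trimmed to mercapturic acids. In lung the enzymes are abundant in club cells and other airway epithelium, and several of the genes are induced by the factor NRF2, which binds antioxidant response elements together with small MAF proteins. The aryl hydrocarbon receptor, which senses polycyclic hydrocarbons, acts through xenobiotic response elements.

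The promoters are shown because both response elements bear on an exposure to exhaust. RefSeq windows on GRCm38.p6, from 250 bases before to 50 bases after the annotated start, were found for 9 of the 10 genes, in 11 windows of 300 bases. The antioxidant response element core TGACNNNGC was searched on both strands. It was found in the windows of 3 genes, Gsta3, Gstm5 and Mgst1, and in 14.0% of all 27025 genes with a window (12.4% of 32851 windows). The xenobiotic response element core GCGTG, also searched on both strands, was found in the windows of Gstm1, Gstm5 and Gstp1, and in 35.2% of all genes. In Gstm5 it was found at 2 places, 1 of them inside the antioxidant element. Below are the 3 windows with TGACNNNGC, in capitals, and that of Gstp1, which holds no match to these letters. Other forms of the antioxidant element were not searched, so a window without capitals is not shown to lack one. The capitals begin 121 bases before the start in Gsta3 (chr1:21240335-21240634, plus strand), 42 bases before it in Gstm5 (chr3:107895604-107895903, plus strand) and 56 bases before it in Mgst1 (chr6:138140277-138140576, plus strand), where the motif reads on the opposite strand. The Gstp1 window lies at chr19:4037863-4038162 on the minus strand. A match in letters describes the window and is not evidence of binding.
Gsta3: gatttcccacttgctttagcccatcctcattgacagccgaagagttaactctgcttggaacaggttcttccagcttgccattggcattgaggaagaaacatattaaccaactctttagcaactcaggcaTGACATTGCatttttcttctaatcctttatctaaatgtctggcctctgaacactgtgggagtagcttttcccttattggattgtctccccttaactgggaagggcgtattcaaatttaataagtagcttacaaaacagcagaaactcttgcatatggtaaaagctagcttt
Gstm5: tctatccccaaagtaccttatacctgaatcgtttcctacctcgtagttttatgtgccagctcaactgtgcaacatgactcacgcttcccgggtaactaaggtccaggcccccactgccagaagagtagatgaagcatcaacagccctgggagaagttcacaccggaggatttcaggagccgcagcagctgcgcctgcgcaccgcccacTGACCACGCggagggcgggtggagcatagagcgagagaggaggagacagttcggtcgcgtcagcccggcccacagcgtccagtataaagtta
Mgst1: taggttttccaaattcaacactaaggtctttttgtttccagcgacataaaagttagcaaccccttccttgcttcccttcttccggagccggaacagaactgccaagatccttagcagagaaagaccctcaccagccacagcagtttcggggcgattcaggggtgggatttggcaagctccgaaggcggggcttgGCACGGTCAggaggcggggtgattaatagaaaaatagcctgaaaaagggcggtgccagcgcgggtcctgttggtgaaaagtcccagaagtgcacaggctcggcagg
Gstp1: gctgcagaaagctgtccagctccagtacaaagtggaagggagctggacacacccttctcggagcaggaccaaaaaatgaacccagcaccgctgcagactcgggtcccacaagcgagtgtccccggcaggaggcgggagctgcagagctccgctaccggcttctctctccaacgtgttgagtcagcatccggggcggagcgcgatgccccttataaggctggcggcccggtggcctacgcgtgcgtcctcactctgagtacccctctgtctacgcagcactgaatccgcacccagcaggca

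The first question was whether exhaust changed these genes. No transferase passed the test against air at either dose, with or without OVA, in the fit without covariates. Values are log2 fold changes ± SE from 1 limma fit over all 24 arrays, and a probe set was called at a Benjamini-Hochberg adjusted p below 0.05 over 13575 probe sets. Of the 15 member probe sets, 0 were called with DE 2000 in saline, where 0.147% of all probe sets were called, and 1 had an unadjusted p below 0.05. With DE 500 in saline 0 were called against 0.00737% of all, and 2 had an unadjusted p below 0.05. With DE 2000 in OVA 0 were called against 0.0221% of all, and 3 had an unadjusted p below 0.05. With DE 500 in OVA 0 were called against 0.0% of all, and 0 had an unadjusted p below 0.05. Averaged over the OVA and saline arms, 0 were called at DE 2000 (0.0884% of all) and 0 at DE 500 (0.0% of all), with 0 and 1 at an unadjusted p below 0.05. Over all probe sets the share with a limma unadjusted p below 0.05 was 5.94% with DE 2000 and 7.9% with DE 500 in saline. It was 8.13% and 0.921% in OVA, and 7.52% and 4.43% in the average. The smallest adjusted p of a member in limma was 0.345, that of Gstm1 with DE 500 in saline.

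The 95% intervals say how large a change could have gone unseen. Over the 10 genes they reached from -0.57 to 0.81 with DE 2000 in OVA and from -0.55 to 0.67 with DE 2000 in saline. At DE 500 they reached from -0.72 to 0.41 in OVA and from -0.80 to 0.92 in saline. A doubling, which is 1 on this scale, lay outside every one of these intervals.

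**Figure D1:**
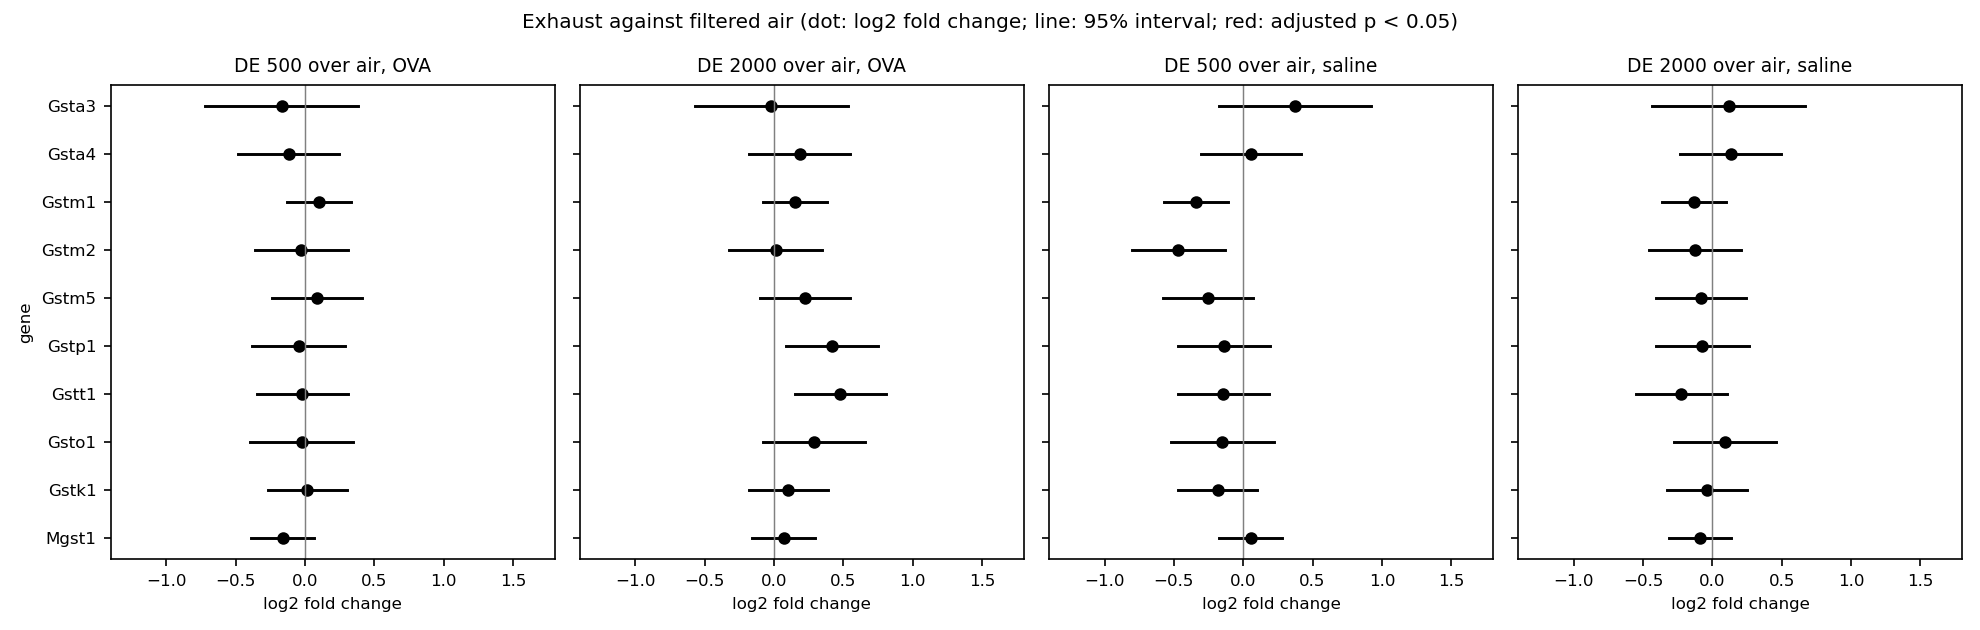
Exhaust over air for each gene by its first probe set. The x axis is the log2 fold change, dots are estimates from limma and lines their 95% intervals, and the 4 panels are DE 500 and DE 2000 in OVA and in saline. No value was called; in the DE 2000 OVA panel 9 of 10 dots lie above 0, with Gstt1 farthest at 0.48.

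With DE 2000 in OVA, 9 of the 10 genes had a value above 0 with a median of 0.17, and 43.8% of all tested probe sets did with a median of -0.04. Under quantile normalization 8 of the 10 lay above 0 (median 0.13), and with arrays scaled to equal medians all 10 did (median 0.27), a scaling that moved the median of all probe sets by over 0.1 to 0.07. In saline 3 of 10 lay above 0 at this dose (median -0.08, against -0.01 for all probe sets). Between the groups, 4 of 15 member probe sets did not overlap in OVA and 0 in saline. The share of all probe sets without overlap was not counted, so these counts say nothing particular to the transferases.

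Gstt1, which handles small halogenated and epoxide substrates, had signals of 2271, 2103, 1852 and 2945 in the DE 2000 OVA group and 1636, 1785, 1339 and 1779 in the air OVA group. Every DE 2000 OVA array lay above every air OVA array, and the difference was 0.48 ± 0.16 (limma unadjusted p = 0.00642, adjusted p = 0.517). In saline the same probe set gave 1099, 1496, 1240 and 1235 with DE 2000 and 1421, 1608, 1612 and 1273 with air, and the groups overlapped (-0.22 ± 0.16). The difference between the arms, the interaction, was 0.70 ± 0.22 (limma unadjusted p = 0.00481, adjusted p = 0.512), so a difference between arms did not pass the test either.

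Gstp1, the main pi-class enzyme and an inhibitor of stress kinase signalling, had signals of 5443, 5674, 5683 and 7436 with DE 2000 in OVA and 4477, 5183, 3763 and 4698 with air in OVA. The groups did not overlap (0.42 ± 0.16, limma unadjusted p = 0.0165, adjusted p = 0.593), and in saline the difference was -0.07 ± 0.16. The highest of these values, 7436, came from replicate 4, the array with the raised 3'/5' ratio. With that array and DE 500 saline replicates 1 and 4 left out, a setting chosen after seeing the data, the difference was 0.32. With the B1 covariate 2 member probe sets were called for DE 2000 against air in OVA, those of Gstp1 and the second of Gsta3. The same fit called 974 of all probe sets in place of 3.

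The second probe set of Gsta3 had the smallest p of the members in this comparison. It gave 465, 481, 441 and 597 with DE 2000 in OVA and 285, 359, 324 and 384 with air in OVA. The groups did not overlap, and the difference was 0.55 ± 0.17 (limma unadjusted p = 0.00290, adjusted p = 0.502). In saline it gave 199, 384, 256 and 319 with DE 2000 and 326, 354, 399 and 378 with air. The group means there were 8.14 and 8.51 in log2, the groups overlapped, and the difference was not called. The interaction of this probe set was 0.92 ± 0.23 (limma unadjusted p = 0.000669, adjusted p = 0.363). The first probe set, which stands for Gsta3 elsewhere, gave -0.02 ± 0.27 with DE 2000 against air in OVA, so the gene's own probe sets did not move together. For the interactions 0 member probe sets were called at either dose against 0.0% of all, with 3 at an unadjusted p below 0.05 at DE 2000 and 1 at DE 500. Of all probe sets 6.11% and 3.09% had such a limma p at these doses.

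Markers of most cell types lay mostly above 0 in DE 2000 OVA against air OVA, and those of others did not. With DE 2000 in OVA 7 of 8 club cell markers lay above 0 (median 0.25) and 9 of 9 alveolar type 2 markers did (median 0.20), and 5 of 6 alveolar macrophage markers did (median 0.17), with 0 called in these lists. Of 5 ciliated cell markers 2 lay above 0 (median -0.01), 0 called. Above 0 lay also 4 of 5 alveolar type 1, 5 of 6 smooth muscle and 6 of 8 heart muscle markers. So did 4 of 4 fat markers, 5 of 7 lymphocyte markers and the single tested liver marker. Neutrophil (3 of 6), endothelial (4 of 8) and fibroblast markers (4 of 8) were evenly split, and 0 were called in all these lists. The summed signal of the club cell markers ran from 120307 to 143481 with DE 2000 in OVA and from 99228 to 128646 with air in OVA. That of the alveolar type 2 markers ran from 138381 to 171521 with DE 2000 in OVA and from 113407 to 140882 with air in OVA. Their part in the transferase values was not tested.

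At DE 500 the members with the lowest values were the mu class in saline. Gstm2, a cytosolic mu enzyme, gave 1295, 2693, 2579 and 2125 with DE 500 and 2910, 2937, 2944 and 2786 with air, with no overlap (-0.47 ± 0.16, limma unadjusted p = 0.00792, adjusted p = 0.384). Gstm1, the most studied mu enzyme, gave 3762, 5566, 5893 and 4435 with DE 500 and 6421, 6180, 5709 and 6168 with air (-0.34 ± 0.11, limma adjusted p = 0.345). In both genes the low values were those of replicates 1 and 4, the arrays with the highest 3'/5' ratios of the series. In OVA the DE 500 values of Gstm1 and Gstm2 were 0.10 ± 0.11 and -0.03 ± 0.16, and Mgst1, whose p was the smallest of the 10 genes there, gave -0.16 ± 0.11 (limma adjusted p = 1.0).

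**Figure D2:**
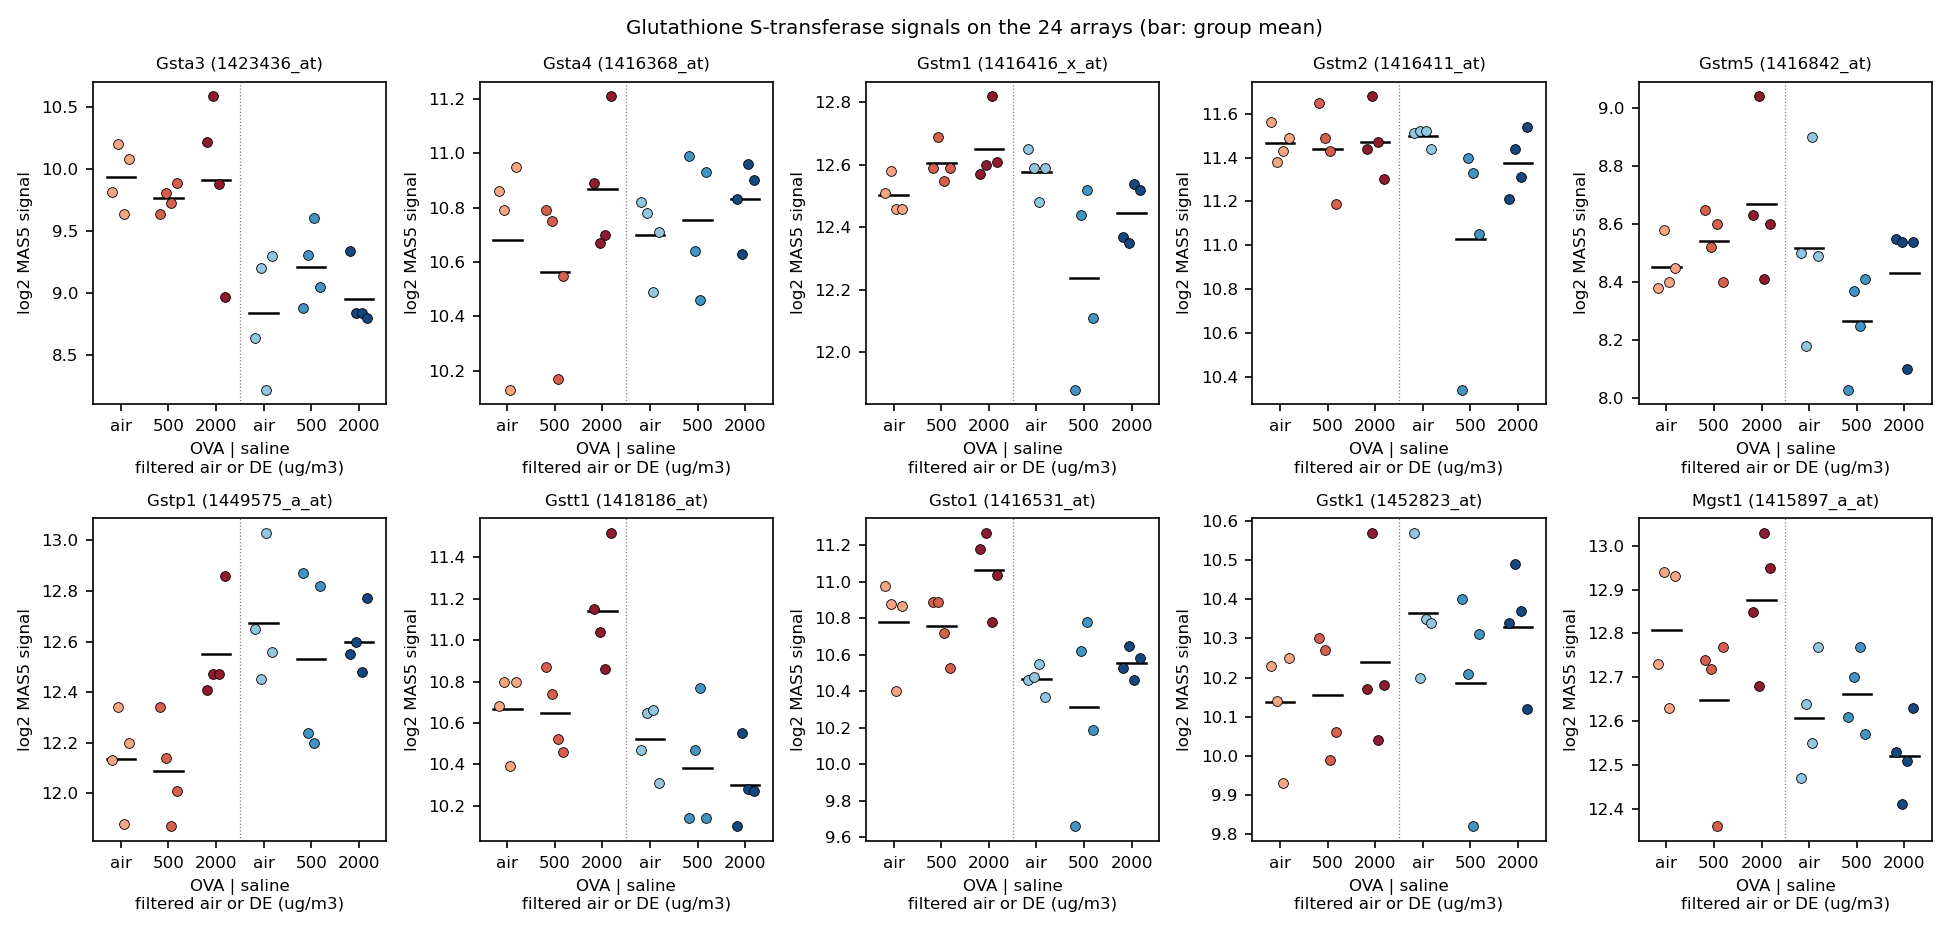
Log2 signal of the first probe set of each of the 10 genes on every array. Points are arrays, bars are group means, and groups run air, DE 500 and DE 2000 with OVA on the left and with saline on the right. All Gsta3 points of the OVA groups but 1 DE 2000 OVA array (500) lie above those of the saline groups, and the DE 2000 OVA points of Gstt1 (1852 to 2945) lie above those of air with OVA (1339 to 1785).

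OVA against saline gave the members that passed. In air, 2 of 15 member probe sets were called (13.3%), 1 up and 1 down, against 14.8% of all probe sets. At DE 500, 1 of 15 was called (6.67%), up, against 12.5% of all. At DE 2000, 5 of 15 were called (33.3%), all up, for 4 of the 10 genes, against 18.1% of all. Averaged over the 3 exposures, 7 of 15 were called (46.7%), 6 up and 1 down, against 46.3% of all. The average share was thus near the share over the whole array, and these counts say nothing particular to the transferases. The 2 groups compared did not overlap for 2 member probe sets in air, 2 at DE 500 and 6 at DE 2000. For overlap too the share of all probe sets was not counted, so these are descriptions only.

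**Figure D3:**
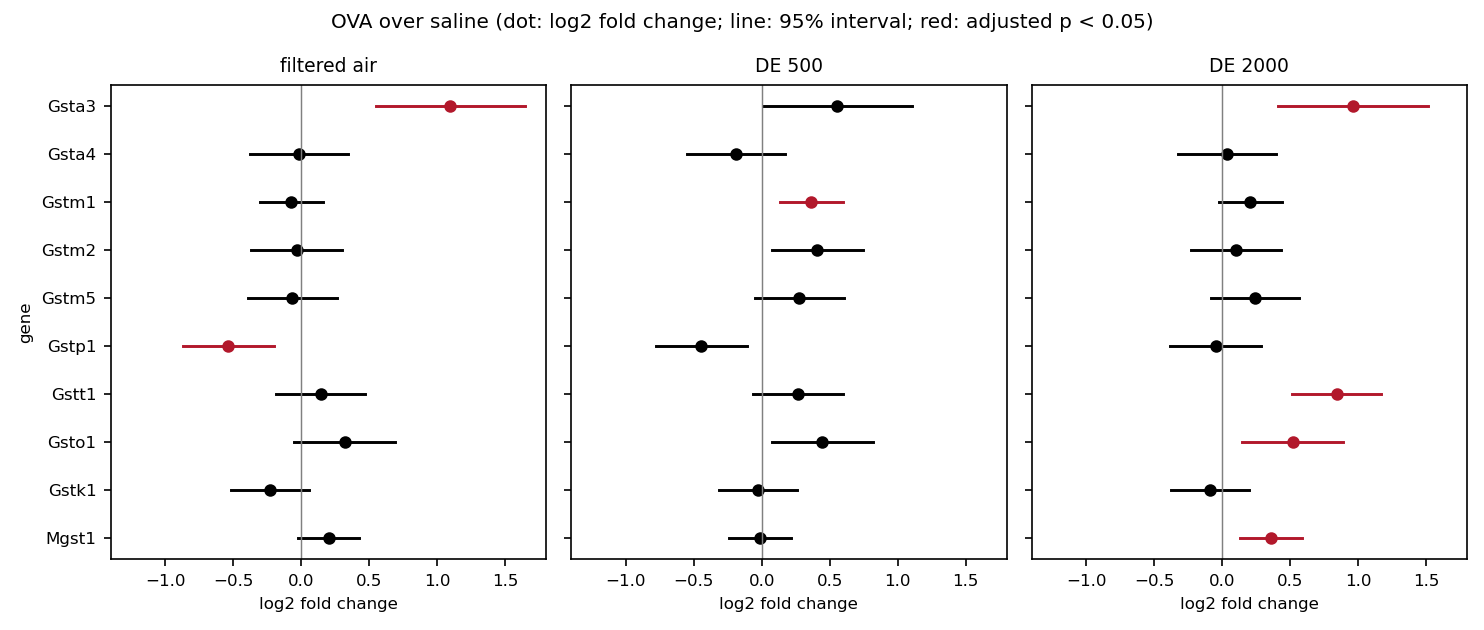
OVA over saline for each gene by its first probe set, at each exposure. The x axis is the log2 fold change, dots are limma estimates, lines are 95% intervals and red marks an adjusted p below 0.05. Gsta3 was called in air (1.10) and at DE 2000 (0.96), Gstp1 fell in air (-0.54), and Gstt1, Gsto1 and Mgst1 were called at DE 2000 alone.

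Gsta3, an alpha-class enzyme that in mice detoxifies the epoxide of aflatoxin, rose with OVA. Its first probe set had signals of 906, 1177, 796 and 1084 with OVA in air, 797, 900, 849 and 948 with OVA at DE 500, and 1194, 1546, 945 and 500 with OVA at DE 2000. With saline it had 398, 589, 299 and 628 in air, 470, 636, 780 and 529 at DE 500, and 647, 460, 459 and 445 at DE 2000. In air and at DE 500 every OVA array lay above every saline array of the same exposure. At DE 2000 the groups overlapped through OVA replicate 4 alone, whose signal of 500 was the lowest of the OVA arm.

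The rise of Gsta3 was 2.14-fold in air (1.10 ± 0.27, limma adjusted p = 0.0127) and 1.95-fold at DE 2000 (0.96 ± 0.27, adjusted p = 0.0155). At DE 500 the value was 0.56 ± 0.27 (limma adjusted p = 0.153). Over the 3 exposures it averaged 1.83-fold (0.87 ± 0.15, limma adjusted p = 0.000115). After the 3'/5' ratio was added to the fit the value was 0.70 in air (limma adjusted p = 0.122), 0.05 at DE 500 and 0.69 at DE 2000 (adjusted p = 0.0355). With the B1 signal as a covariate it was 0.50 in air and 0.07 at DE 2000, neither called. The average over exposures was 0.48 with the 3'/5' covariate (limma adjusted p = 0.0464) and 0.15 with the B1 covariate (adjusted p = 0.770). The ratio and the B1 signal were not balanced between the arms, and their part in the rise cannot be told apart from OVA by these fits. With DE 500 saline replicates 1 and 4 and DE 2000 OVA replicate 4 left out, the value at DE 2000 was 1.28. The call at DE 2000 was lost without OVA replicate 1 (0.86, limma adjusted p = 0.0516) or replicate 2 (0.73, adjusted p = 0.0712) and with only the 2 groups in the fit (adjusted p = 0.0572). Without air saline replicate 3 the call in air was lost (0.89, limma adjusted p = 0.0657).

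The second probe set of Gsta3 gave other values in air and at DE 500. It gave 285, 359, 324 and 384 with OVA in air and 326, 354, 399 and 378 with saline in air (-0.11 ± 0.17). At DE 500 it gave 374, 382, 378 and 399 with OVA and 348, 349, 352 and 470 with saline (0.03 ± 0.17). At DE 2000 it gave 465, 481, 441 and 597 with OVA and 199, 384, 256 and 319 with saline, with no overlap (0.81 ± 0.17, limma adjusted p = 0.00202). This call was kept with the 3'/5' ratio (0.88, adjusted p = 0.00113) and with the B1 signal (0.99, adjusted p = 0.0148) as a covariate in limma. Over the 24 arrays the log2 signals of the 2 Gsta3 probe sets correlated at 0.19, and at -0.34 after group means were taken away, given as descriptions over arrays that share their groups.

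Gsta4, the alpha enzyme that clears 4-hydroxynonenal from lipid oxidation, did not pass in any comparison. Its signals ran from 1117 to 2375, all neighbouring groups overlapped, and OVA over saline gave -0.02 ± 0.17 in air, -0.19 ± 0.17 at DE 500 and 0.04 ± 0.17 at DE 2000.

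Gstp1 was the single member that fell with OVA. It had signals of 4477, 5183, 3763 and 4698 with OVA and 6436, 5587, 8375 and 6039 with saline in air, and the groups did not overlap (-0.54 ± 0.16, limma adjusted p = 0.0308). At DE 500 it had 5180, 4506, 3753 and 4119 with OVA and 7485, 4827, 4705 and 7249 with saline, which overlapped (-0.44 ± 0.16, limma adjusted p = 0.0685). At DE 2000 it had 5443, 5674, 5683 and 7436 with OVA and 6013, 6212, 5724 and 6969 with saline (-0.05 ± 0.16). The OVA groups in air and at DE 500 thus held the low values, and the DE 2000 OVA group lay among the saline groups.

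Averaged over the exposures Gstp1 was 1.27-fold lower with OVA (-0.34 ± 0.09, limma adjusted p = 0.00474). This average was -0.05 with the 3'/5' covariate (limma adjusted p = 0.753) and turned to 0.10 with the B1 covariate (adjusted p = 0.738). With the 3'/5' covariate the value in air was -0.24 (limma adjusted p = 0.303), and with the B1 signal it was -0.17 (adjusted p = 0.732). With DE 500 saline replicates 1 and 4 left out, the value at DE 500 was -0.13. The call in air was lost without any 1 of air OVA replicates 1, 3 and 4 or air saline replicates 1 and 3 (limma adjusted p from 0.0586 to 0.136). Gstp1 has a near-identical neighbour, Gstp2, which no probe set of the annotation names alone, and the array may not separate their transcripts.

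Gstt1 rose with OVA at DE 2000, by 1.79-fold (0.84 ± 0.16, limma adjusted p = 0.000972). Its signals there were those given above, from 1852 to 2945 with OVA and from 1099 to 1496 with saline, with no overlap. In air it gave 0.14 ± 0.16 and at DE 500, with 1865, 1712, 1465 and 1410 for OVA and 1127, 1416, 1744 and 1128 for saline, 0.27 ± 0.16, neither called. In the order of group means DE 2000 OVA came first and did not overlap the next group, air OVA, while every other pair of neighbours in that order overlapped. The value at DE 2000 was 0.79 after the 3'/5' ratio was added to the fit (limma adjusted p = 0.00170) and 0.72 with the B1 signal (adjusted p = 0.0524). Leaving out the 3 arrays named above gave 0.71 (limma adjusted p = 0.000476).

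Gsto1, an omega enzyme that reduces dehydroascorbate and methylated arsenic, rose with OVA at DE 2000. Its first probe set had 2324, 2471, 1762 and 2109 with OVA and 1478, 1601, 1411 and 1526 with saline, with no overlap (0.52 ± 0.18, limma adjusted p = 0.0470). In air it had 2024, 1886, 1350 and 1871 with OVA and 1411, 1424, 1494 and 1324 with saline (0.32 ± 0.18). At DE 500 it had 1895, 1895, 1692 and 1482 with OVA and 807, 1576, 1764 and 1166 with saline (0.45 ± 0.18, limma adjusted p = 0.0939), and 0.06 without DE 500 saline replicates 1 and 4. The call at DE 2000 was lost with the 3'/5' ratio (0.35, limma adjusted p = 0.128) and the B1 signal (0.04, adjusted p = 0.949) as a covariate, and without any 1 array of the 2 groups other than OVA replicate 3. The second Gsto1 probe set gave 0.08 ± 0.23 in air, -0.02 ± 0.23 at DE 500 and 0.01 ± 0.23 at DE 2000.

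Mgst1, a trimeric membrane enzyme that also reduces lipid peroxides, rose with OVA at DE 2000. It had 7366, 6544, 8383 and 7919 with OVA and 5913, 5440, 5839 and 6327 with saline, with no overlap (1.28-fold, 0.36 ± 0.11, limma adjusted p = 0.0269). In air it had 6796, 7883, 6333 and 7811 with OVA and 5673, 6366, 6009 and 7003 with saline (0.20 ± 0.11). At DE 500 it had 6841, 6749, 5265 and 7000 with OVA and 6249, 6661, 6996 and 6066 with saline (-0.01 ± 0.11). With the 3'/5' covariate the call at DE 2000 was kept (0.33, limma adjusted p = 0.0422), and with the B1 signal it was lost (0.27, adjusted p = 0.303). It was also lost with arrays scaled to equal medians (0.36, limma adjusted p = 0.0733), with only the 2 groups in the fit (adjusted p = 0.0658), and without OVA replicate 3 or any 1 of saline replicates 1, 2 and 3 (values from 0.31 to 0.36, adjusted p from 0.0532 to 0.0858).

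Among the mu genes Gstm1 was called with OVA at DE 500, by its first probe set. It had 6166, 6586, 5995 and 6170 with OVA and 3762, 5566, 5893 and 4435 with saline (0.36 ± 0.11, limma adjusted p = 0.0378). Without DE 500 saline replicates 1 and 4 the value was 0.12 (limma adjusted p = 0.802), and after the 3'/5' ratio was added to the fit it was 0.14 (adjusted p = 0.650), and with the B1 covariate 0.12 (adjusted p = 0.831). In air Gstm1 had 5850, 6124, 5645 and 5632 with OVA and 6421, 6180, 5709 and 6168 with saline (-0.07 ± 0.11), and at DE 2000 it had 6074, 6227, 7227 and 6272 with OVA and 5304, 5226, 5961 and 5879 with saline, with no overlap (0.20 ± 0.11), neither called. The other Gstm1 probe sets gave values from -0.07 to 0.33 at DE 500, none called. Gstm2 gave 0.41 ± 0.16 at DE 500 (limma adjusted p = 0.0889) and 0.07 without the same arrays. Gstm5, a further cytosolic mu enzyme, had signals from 262 to 528 and gave 0.24 ± 0.16 at DE 2000, not called. The mu genes lie side by side on chromosome 3 and are alike in sequence, and the first probe set of Gstm1, marked by the maker as able to bind related transcripts, may hold signal of more than 1 of them.

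Gstk1 ran from 902 to 1522, with OVA over saline at -0.23 ± 0.14 in air, -0.03 ± 0.14 at DE 500 and -0.09 ± 0.14 at DE 2000, and was called in no comparison. All neighbouring groups overlapped in the order of its means. Over the 24 arrays the highest signal of a gene was from 1.59 times its lowest in Mgst1 to 5.18 times in Gsta3, and 3.06 times in Gsto1.

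**Figure D4:**
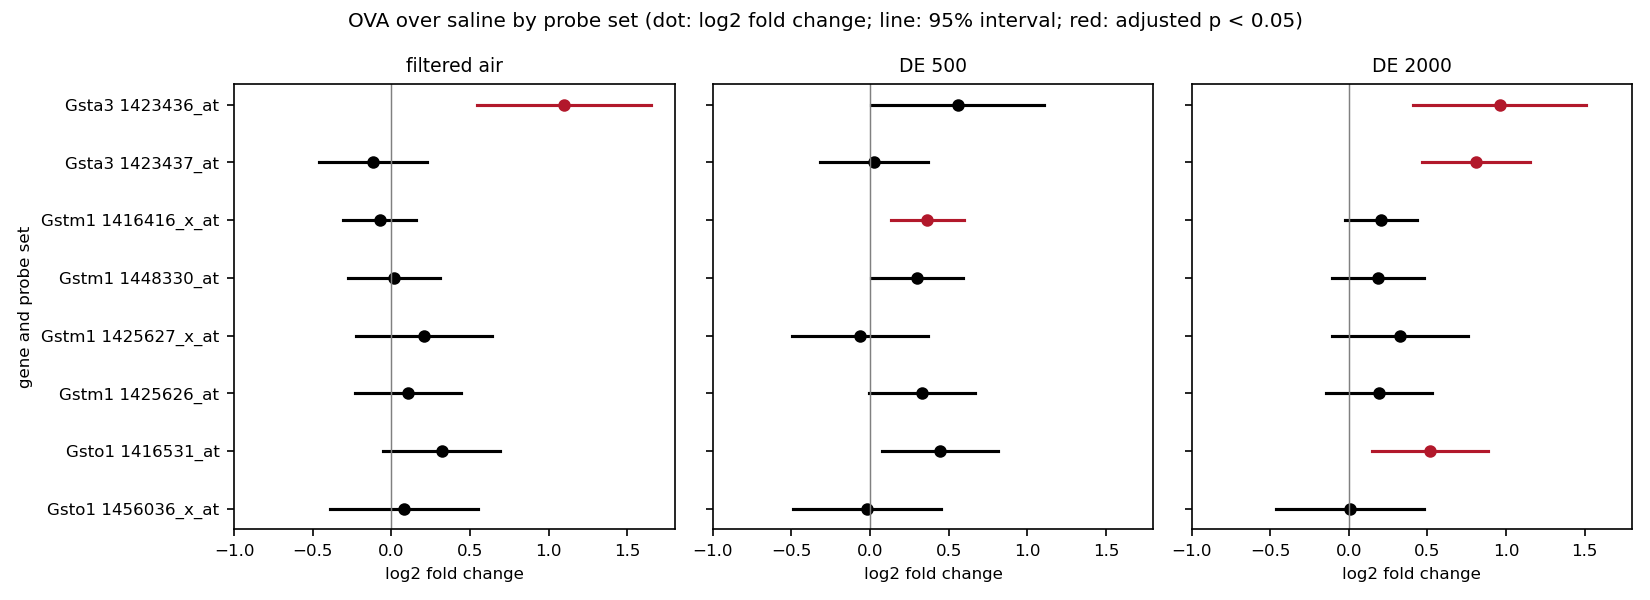
OVA over saline for each tested probe set of the 3 genes with more than 1. The x axis is the log2 fold change, dots are limma estimates, lines are 95% intervals and red marks an adjusted p below 0.05. The Gsta3 probe sets differ in air (1.10 and -0.11) and are both called at DE 2000, and the Gsto1 probe sets differ at DE 2000 (0.52 and 0.01).

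Within the saline arm, where no array had received OVA, some transferases differed with the 3'/5' ratio. In the DE 500 saline group Gstp1 was high on the arrays with high ratios, 7485 and 7249 in replicates 1 and 4, and low on the others, 4827 and 4705. Gsto1 ran the other way, with 807 and 1166 in replicates 1 and 4 and 1576 and 1764 in replicates 2 and 3. In OVA the array with the raised ratio, DE 2000 OVA replicate 4, had the highest Gstp1 signal of its arm (7436) and the lowest Gsta3 signal (500).

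Over the 12 saline arrays the ratio and the Gstp1 log2 signal had a Pearson r of 0.85 (permutation p = 0.00063, adjusted over 10 genes 0.0046) and a Spearman rho of 0.89 (permutation p = 0.00032, adjusted 0.0032). Without the 2 arrays farthest from the median ratio, DE 500 saline replicates 1 and 4, r was 0.93. Gsto1 had an r of -0.82 (permutation p = 0.00092, adjusted 0.0046) and a rho of -0.57 (permutation p = 0.0563, adjusted 0.178), and without those arrays r was -0.42. Gstm1 had an r of -0.79 (permutation p = 0.00427, adjusted 0.0142) and a rho of -0.57 (permutation p = 0.0601, adjusted 0.178), with -0.16 without them. Gstm2 had an r of -0.70 (permutation p = 0.0126, adjusted 0.0315) and a rho of -0.28 (permutation p = 0.381, adjusted 0.381), with 0.23 without them. The relations of Gsto1, Gstm1 and Gstm2 therefore rest on those 2 arrays, and that of Gstp1 does not. Gsta3 had an r of -0.49 (permutation p = 0.105, adjusted 0.145) and a rho of -0.44 (permutation p = 0.154, adjusted 0.193), with -0.78 without them. The other 5 genes had adjusted permutation p-values of 0.11 or more by either measure over the 12 arrays. Without the same 2 arrays, r was 0.77 in place of 0.05 for Gstm5, 0.63 in place of 0.48 for Gstk1, -0.59 in place of -0.36 for Mgst1, 0.11 in place of 0.48 for Gsta4 and -0.27 in place of -0.57 for Gstt1, so these genes are not shown to be unrelated to the ratio. These tests were two-sided, and the arrays share 3 exposure groups. With 4 arrays in each exposure, a correlation within an exposure was not computed.

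**Figure D5:**
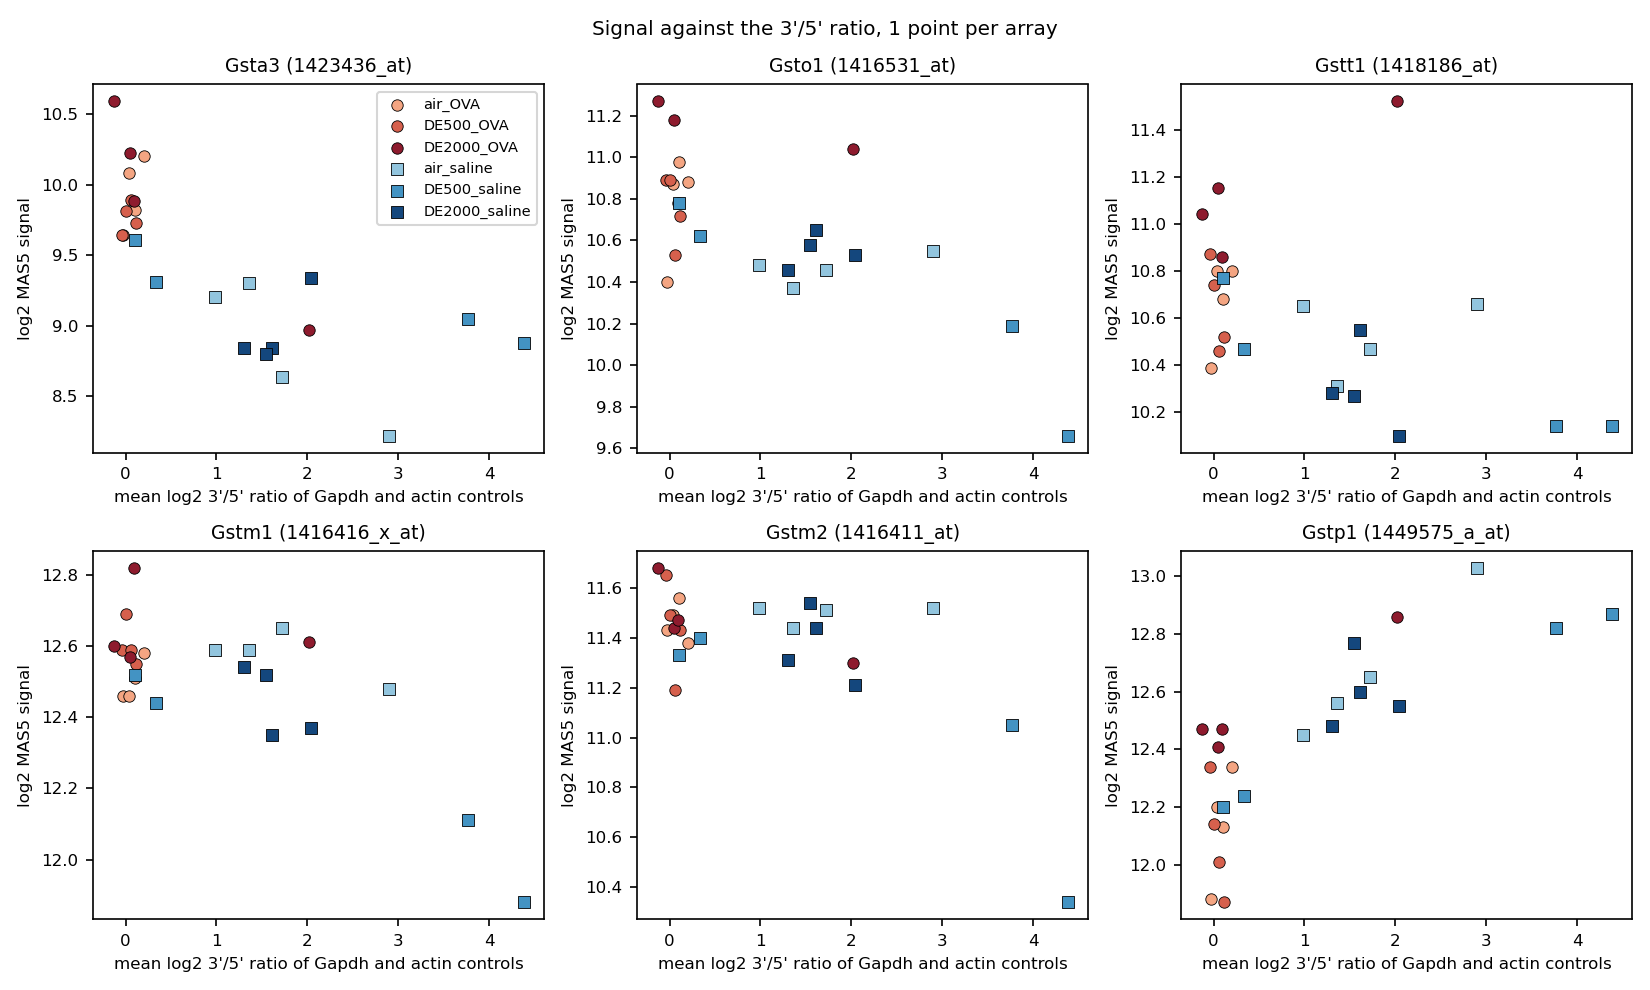
Log2 signal of 6 genes (y axis) against the 3'/5' ratio in log2 units (x axis), 1 point per array. Circles are OVA groups and squares saline groups, in the colours of the legend. Gstp1 rises with the ratio within the saline squares (r 0.85 over 12 arrays), and Gsto1, Gstm1 and Gstm2 are low on the 2 DE 500 saline arrays with ratios of 4.38 and 3.77.

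Among themselves the members fell into a few like pairs, given as descriptions over 24 arrays that share groups and the differences in ratio above. Gstt1 and Gsto1 correlated at 0.81, Gstm1 and Gstm2 at 0.79 and Gstm2 and Gsto1 at 0.73. Gsta3 and Gstp1 correlated at -0.66. The 2 strongest Gstm1 probe sets correlated at 0.82, while the Gsto1 probe sets did so at -0.07. Outside the members, the genes most like the members' mean over the 24 arrays were Mgst3, a microsomal transferase (Pearson r 0.86), Cox8a, a subunit of cytochrome oxidase (0.84), Naxe, which repairs damaged NADH (0.82), Ost4, a subunit of the oligosaccharyltransferase (0.82), and Smim7, a small membrane protein (0.81). With group means taken away they were Rplp0, a ribosomal stalk protein (0.84), Asf1b, a histone chaperone (0.81), Rrp15, needed for ribosome assembly (0.79), Esm1, an endothelial proteoglycan (0.78), and Mrpl19, a mitochondrial ribosomal protein (0.76).

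The rest of the transferase family was read in the same way. Of 20 further transferase and related membrane-enzyme genes, 15 were on the array and 13 were tested. None was called with exhaust in either arm, and with DE 2000 in OVA 8 of 13 had values above 0 (median 0.05). With OVA at DE 2000, 1 rose and 1 fell, and 11 of 13 lay above 0 (median 0.22, against -0.03 for all probe sets). Mgst3 rose, with signals between 916 and 1320 on the DE 2000 OVA arrays and between 695 and 811 on the DE 2000 saline arrays (0.61 ± 0.20, limma adjusted p = 0.0402). Gstp3, a pi-class relative of Gstp1, fell, with 206 to 252 on the DE 2000 OVA arrays and 317 to 359 on the DE 2000 saline arrays (-0.62 ± 0.16, limma adjusted p = 0.00934). Gstt2, a theta enzyme like Gstt1, gave -0.63 ± 0.23 there and fell at DE 500 (-0.72 ± 0.23, limma adjusted p = 0.0412), where Gstp3 fell too (-0.48 ± 0.16, adjusted p = 0.0495). Gstt3, a further theta gene, gave 0.35 ± 0.26 in air, 0.35 ± 0.26 at DE 500 and 0.35 ± 0.26 at DE 2000, not called. Averaged over exposures 3 of the 13 rose and 2 fell. Of all probe sets 12.5% were called at DE 500, 18.1% at DE 2000 and 46.3% in the average. With the 3'/5' covariate Gstp3 alone was called at DE 2000 (-0.50, limma adjusted p = 0.0262) and Mgst3 gave 0.58 (adjusted p = 0.0633), with 0 of 13 called in air, at DE 500 and in the average. With the B1 covariate neither was called at DE 2000 (-0.24 and 0.42), while 1 other of the 13 was called up there.

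Genes of glutathione synthesis and recycling were called in both directions with OVA. Averaged over exposures 3 of the 13 tested rose and 5 fell, and 46.3% of all probe sets were called. In air 14.8% of all were called and at DE 500 12.5%. At DE 2000 2 of 13 were called, against 18.1% of all. There 0 rose and 2 fell: Gclm, the modifier subunit of the rate-limiting synthetic enzyme (-1.01 ± 0.27, limma adjusted p = 0.0137), and Oplah, which returns 5-oxoproline to glutamate (-0.57 ± 0.13, adjusted p = 0.00505). In air 0 rose and 2 fell, Oplah (-0.66 ± 0.13, limma adjusted p = 0.00554) and Pgd, of the NADPH-making pentose pathway (-0.79 ± 0.25, adjusted p = 0.0355). At DE 500, 1 rose, the malic enzyme Me1 (0.87 ± 0.27, limma adjusted p = 0.0417), and 1 fell, Oplah (-0.41 ± 0.13, adjusted p = 0.0457). With DE 2000 in saline 0 were called, and Gclc, the catalytic subunit, gave 0.62 ± 0.19 (limma adjusted p = 0.297). In the OVA average Gclc was called down with both covariates. It gave -0.55 with the 3'/5' ratio (limma adjusted p = 0.00343) and -0.73 with the B1 signal (adjusted p = 0.0188). Of 7 tested genes of conjugate export and trimming, 0 rose and 3 fell with OVA at DE 2000: the aminopeptidase Anpep (-0.80 ± 0.20, limma adjusted p = 0.00934), and the pumps Abcc5 (-0.74 ± 0.19, adjusted p = 0.00995) and Abcc3 (-0.47 ± 0.14, adjusted p = 0.0251). In air and at DE 500 0 of the 7 were called, and in the average 1 rose and 4 fell. With the 3'/5' covariate the DE 2000 values of Gclm (-0.82), Oplah (-0.49), Anpep (-0.91), Abcc5 (-0.95) and Abcc3 (-0.46) were still called by limma (adjusted p from 0.000129 to 0.0375). With the B1 covariate Abcc5 (-1.39, limma adjusted p = 0.000806) and Anpep (-1.03, adjusted p = 0.0318) were, and Gclm (-0.21), Oplah (-0.29) and Abcc3 (-0.34) were not. Over the whole synthesis and recycling list at DE 2000, 3 genes were called down with the 3'/5' covariate and 0 up. With the B1 covariate 1 was called down there, neither Gclm nor Oplah, and 0 up. Of the calls in air and at DE 500, Oplah in air was kept with the 3'/5' covariate (-0.55, limma adjusted p = 0.0453) and lost with B1, and the others, Pgd, Me1 and Oplah at DE 500, were lost with either covariate.

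Regulators of the NRF2 pathway were called in both directions with OVA, 3 up and 1 down in air, 1 up and 1 down at DE 500, and 4 up and 3 down in the average. Of all probe sets 14.8% were called in air, 12.5% at DE 500, 18.1% at DE 2000 and 46.3% in the average. At DE 2000, of the 8 regulators, 3 rose and 1 fell. Maff, a small MAF partner, rose by 1.14 ± 0.25 (limma adjusted p = 0.00288) and Nfe2l2, which encodes NRF2, by 0.44 ± 0.12 (adjusted p = 0.0165), while Mafg, another small MAF partner, fell by 0.77 on the log2 scale (adjusted p = 0.00105). Of 15 tested NRF2 targets that are not transferases, 1 rose, the ferritin heavy chain Fth1 (0.74 ± 0.18, limma adjusted p = 0.00710), and 1 fell, Gclm, which also stands in the synthesis list, and in the average 4 rose and 2 fell. With DE 2000 in OVA 11 of these 15 lay above 0 (median 0.12), none called. Of 5 tested genes of the aryl hydrocarbon receptor axis, 1 rose with OVA at DE 2000, Ahr itself (0.72 ± 0.17, limma adjusted p = 0.00606), 1 at DE 500, 0 in air and 4 in the average, and 0 were called with exhaust. Of the genes named here, Maff, Nfe2l2, Mafg, Fth1, Gclm and Ahr were called at DE 2000 with the 3'/5' covariate. With the B1 covariate Maff was (1.29, limma adjusted p = 0.0294) and the other 5 were not. Over the whole lists the 3'/5' covariate called 3 regulators up and 1 down, 2 targets up and 2 down, and 1 receptor axis gene up. The B1 covariate called 1 regulator up, 2 targets down and 0 receptor axis genes at DE 2000. With either covariate 0 genes of these 3 lists were called in air or at DE 500. Nqo1, a widely used NRF2 target, lay below the limit for testing.

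Cell markers were called in several lists beside the OVA values at DE 2000, where 18.1% of all probe sets were called. No test set the counts of these short lists against that share. Of 9 alveolar type 2 markers 2 rose, Cxcl15 (0.64 ± 0.13, limma adjusted p = 0.00189) and the surfactant protein gene Sftpb (0.36 ± 0.12, adjusted p = 0.0412). Of 8 fibroblast markers 2 rose, the transcription factor gene Tcf21 (0.79 ± 0.18, limma adjusted p = 0.00471) and the matrix gene Lum (0.70 ± 0.21, adjusted p = 0.0257), and 7 lay above 0 (median 0.32). Of 6 alveolar macrophage markers 1 rose, Cd68 (0.69 ± 0.24, limma adjusted p = 0.0459). Of 8 endothelial markers 2 fell, Vwf (-0.64 ± 0.14, limma adjusted p = 0.00362) and Egfl7 (-0.61 ± 0.18, adjusted p = 0.0215).

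The summed signals of the fibroblast markers ran from 21350 to 24064 with OVA and from 16963 to 19898 with saline at DE 2000, and those of the endothelial markers from 41010 to 44034 with OVA and from 44999 to 51682 with saline, neither pair overlapping. Those of the alveolar type 2 markers ran from 138381 to 171521 with OVA and from 135098 to 148405 with saline. Of 8 club cell markers 4 lay above 0 (median 0.06) and 0 were called, and their sums ran from 120307 to 143481 with OVA and from 125742 to 142309 with saline. With the 3'/5' covariate 7 of the 8 club cell markers lay above 0 (median 0.13) and 1 was called up. With the B1 covariate 6 did (median 0.43) and 1 was called up.

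Of 6 tested neutrophil markers 2 were lower with OVA at DE 2000, the calprotectin subunits S100a9 (-1.15 ± 0.32, limma adjusted p = 0.0171) and S100a8 (-0.99 ± 0.31, adjusted p = 0.0315). The summed neutrophil signal ran from 4698 to 6062 with OVA and from 6831 to 12379 with saline at DE 2000, and from 4242 to 6283 with OVA and from 4033 to 6221 with saline in air. The DE 2000 saline group was thus the one that stood apart, and against air in saline 6 of 6 neutrophil markers lay above 0 there (median 0.71), 0 called. Of all the marker calls named here, Cxcl15, Tcf21, Vwf, Egfl7 and S100a9 were kept with the 3'/5' covariate and none with the B1 covariate. The B1 covariate called other markers with OVA at DE 2000. These were 1 up in each of the club cell, alveolar type 1 and fibroblast lists and 1 down in the endothelial list. The part of cell composition in the transferase values was not tested.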

How the data were processed

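The deposited values are linear intensities, 1 for each probe set on each array. The authors made them with MAS5, per the submitters' processing notes, which give no version. Per the labels' protocols, RNA was extracted from frozen lung with Qiagen RNeasy kits, and 2 ug went into biotin-labelled cRNA. Array means after trimming 2% at each end lay between 500.1 and 500.2 and medians between 182 and 243, so the intensities arrived scaled to a common trimmed mean, and genes that change can shift others slightly.

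Of 22690 probe sets, 64 controls were set aside. Of the other 22626, 20380 name 1 gene in the platform annotation, 691 several and 1555 none. Intensities were taken to log2 with no pseudocount, and 13575 probe sets above the 40th percentile of mean log2 were tested. They cover 8315 genes. All 24 arrays entered 1 linear model of the 6 groups in limma (version 3.58.1, run under R 4.3.3), moderated by eBayes with a trend on mean signal, two-sided, with p-values adjusted by Benjamini-Hochberg over all tested probe sets in each of 12 comparisons. Correlations used 100000 permutations in scipy 1.17.1. The fit was tested on simulated data.

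All 10 genes and all their probe sets are named. Of each list, members with the smallest p are named, at most 3 per comparison, and of genes like the members the 5 with the highest r. The members, lists and tests were chosen with earlier results of these data known, as were the 3'/5' and B1 covariates. The replicate numbers were not used as pairs: over 60 pairs of same-numbered arrays the residual correlation averaged 0.03, from -0.43 to 0.59. Promoters are RefSeq's on GRCm38.p6. Alternatives tried were quantile and median scaling, no filter and one at the 60th percentile, a pseudocount of 32, no trend, array weights, a single probe set for each gene, only the groups compared, the replicate block, both covariates and leaving out arrays. No slide or scan batch is given in the sources used here.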

Additional observations from a re-analysis of the deposited data

Results flagged for a closer look

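In 60 sets of 4 arrays, 1 per gene and group, 4 had an array whose gap to the nearest other, over the range of the group, passed Dixon's critical value at the 95% level. Chance alone gives about 1 in 20. Gsta3 was high on DE 2000 saline replicate 1, at 647 against 445 to 460 on the others of its group. Gstm5 was low on DE 2000 saline replicate 3, at 275 against 371 to 374. Gstp1 was high on DE 2000 OVA replicate 4, at 7436 against 5443 to 5683, and this array also had the highest 3'/5' ratio of the OVA arm (2.02). Mgst1 was low on DE 500 OVA replicate 3, at 5265 against 6749 to 7000.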

How the results depend on the processing

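With exhaust against air 0 member probe sets were called under every alternative, apart from DE 2000 in OVA with the B1 covariate, which called 2 (the second Gsta3 probe set at 0.59 and Gstp1 at 0.53) and 974 of all probe sets in place of 3. The same covariate called 1 for the DE 2000 interaction. With OVA in air the count of 2 became 0 with the 3'/5' and 0 with the B1 covariate, where all probe sets gave 240 and 28 in place of 2004, and leaving out 1 array gave 0 to 2. It became 3 with quantile normalization and with array weights. With OVA at DE 500 the count of 1 became 0 with median scaling, no filter, no trend, either covariate, only the groups compared and both sets of arrays left out, and 5 with array weights. Leaving out 1 array there gave 0 to 5, with 4 without DE 500 saline replicate 2 and 5 without replicate 3. With OVA at DE 2000 the count of 5 became 1 with the B1 covariate and 3 with only the groups compared, and leaving out 1 array gave 3 to 4. It became 4 with median scaling, no filter, no trend, the 3'/5' covariate and a single probe set for each gene. Averaged over exposures the OVA count of 7 became 4 with median scaling, 1 with the 3'/5' covariate (Gsta3), 0 with the B1 covariate and 4 with the 3 uneven arrays left out, and leaving out 1 array gave 5 to 7. It became 9 with array weights and 5 with no filter. Quantile normalization, no trend and a single probe set for each gene gave 6. Gstm1 averaged 0.17 and turned to -0.01 with the 3'/5' and -0.10 with the B1 covariate, and Gstp1 averaged -0.34 and turned to 0.10 with the B1 covariate. The causes were not tested. With the replicate block the counts were 4 with OVA at DE 2000, where Gsto1 was lost (adjusted p = 0.0509), and 8 in the average, and unchanged elsewhere. The fit of only the groups compared was not run for the OVA average, which uses all arrays. Both sets of arrays left out together were chosen after seeing the data. Low signal limits the untested Mgst1 probe set, and 4 arrays per group limit the rest.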
